A study of Mus musculus with 12 samples.

Results

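The T cell receptor (TCR) repertoire of CD8+ T cells from tumors of control IgG-treated mice was compared with that of CD8+ T cells from spleens of the same treatment. Of the 12 libraries of the series, 2 were compared, 1 from tumor and 1 from spleen, chosen by their labels. Each library was a mix of 3 samples from wild-type tumor-bearing mice given control IgG at 30 mg/kg, in 3 doses 3 days apart. CD8+ cells were taken with magnetic microbeads, and 100 ng of their RNA went into each library. The study names its tumor model as the mouse head and neck cancer line MTCQ1-2, which it grew in C57BL/6 mice. The labels give no strain or age and do not say that tumor and spleen came from the same animals. The control IgG library of the tumor-draining lymph node (tdLN) served for tracing, as did the 3 spleen libraries from IL-10-Fc, αCSF1R or BF10 mice. The libraries of all treatments gave the ranges of single chains and genes.

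Each T cell joins a V, a J and, for β and δ chains, a D gene segment into its receptor gene, trimming the ends and adding bases that no segment encodes. The join is read as the CDR3, the loop that lies over the peptide when an αβ TCR binds a peptide held by an MHC molecule. The V segment also encodes the other 2 loops that touch the MHC. Since most joins are made once, a CDR3 nucleotide sequence can mark the offspring of 1 cell, and some joins that need few added bases arise again and again in different animals. Chains are named TRAC for α, TRBC for β, TRGC for γ and TRDC for δ. Reads of a chain that share V and J calls and the same CDR3 bases make up a clonotype. Its level is the number of unique molecular identifiers (UMIs), each a tagged cDNA molecule, seen in at least 3 reads. Fewer cells of a clone and less receptor RNA per cell cannot be told apart.

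The tumor library held 104036 TRBC UMIs in 9466 clonotypes, and the spleen library held 153435 in 79715. For TRAC, the tumor held 79926 UMIs in 9468 clonotypes and the spleen 115039 in 51653. Conventional CD8+ T cells carry α and β chains, as do the NKT and MAIT cells described below. The γ and δ chains together took 4.27% of tumor UMIs (95% exact interval 4.18% to 4.36%) and 1.96% of spleen UMIs (1.91% to 2.01%). The γ chains alone took 3.41% of tumor and 1.08% of spleen UMIs. The δ chains took 0.859% of tumor UMIs (0.818% to 0.901%) and 0.876% of spleen UMIs (0.842% to 0.912%), so only the γ share was higher in the tumor. CD8 itself was not measured by these libraries. With 1 library a side there is no replicate check, so no difference below was tested. All intervals are exact binomial or conditional intervals at 95% and cover counting error only. For fold values a count of 0 was set at 3 UMIs, which is 0.00288% of TRBC UMIs in the tumor and 0.00196% in the spleen.

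The 10 most abundant tumor TRBC clonotypes took 28.2% of TRBC UMIs, and the 10 most abundant of the spleen took 0.267%. For TRAC, the leading 10 took 21.8% in the tumor and 1.05% in the spleen. The tumor held 10.99 TRBC UMIs per clonotype and the spleen 1.92. Tumor libraries of the other treatments held 1.94 (BF10), 2.38 (IL-10-Fc) and 13.2 (αCSF1R). The CDR3s of the 4 leading tumor β chains and the 2 leading tumor α chains are printed below to show their joins. Capitals mark the bases that match neither the germline V end nor the germline J end, read from the front and from the back.
Trbv5-Trbj1-2, 11032 tumor UMIs: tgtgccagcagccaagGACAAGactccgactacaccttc
Trbv19-Trbj2-1, 4434 tumor UMIs: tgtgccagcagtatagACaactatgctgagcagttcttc
Trbv19-Trbj2-7, 2789 tumor UMIs: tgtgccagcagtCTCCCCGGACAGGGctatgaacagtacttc
Trbv12-1-Trbj1-6, 1950 tumor UMIs: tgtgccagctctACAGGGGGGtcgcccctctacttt
Trav9n-3-Traj9, 6151 tumor UMIs: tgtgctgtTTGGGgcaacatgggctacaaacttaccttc
Trav5d-4-Traj53, 2296 tumor UMIs: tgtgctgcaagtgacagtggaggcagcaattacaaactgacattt
The leading β chain has 6 bases in capitals, the third has 14, and the α chain of Trav5d-4 has none, so that its whole CDR3 reads as V followed by J.

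None of the 4 β chains had a UMI in the spleen, where the exact interval of a count of 0 reaches 0.00240%. With the spleen set at 3 UMIs, the leading chain, with the amino acid CDR3 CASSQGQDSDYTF, was 5423-fold higher in the tumor. It had 56 UMIs in the tdLN of control mice and none in any of the 9 libraries of other treatments. The next chain, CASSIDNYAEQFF, took 4.26% of tumor TRBC UMIs (4.14% to 4.39%) and was 2180-fold higher on the same setting. Of the leading 2 α chains, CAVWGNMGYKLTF took 7.70% of tumor TRAC UMIs (7.51% to 7.88%) and had 0 spleen UMIs. With the spleen again set at 3 UMIs, it was 2951-fold higher. The Trav5d-4 chain had 4 UMIs in the spleen and was also listed in 4 libraries of other treatments. Which α chain sat with which β chain in a cell is not recorded by bulk libraries.

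Use of the Trbv genes, which lie on chromosome 6, differed widely by UMIs and much less by clonotypes. A gene was counted as differing when it took at least 1% in either library and its shares differed at least 1.5-fold. Of 20 Trbv genes with that share, 13 passed (65%), 6 higher in the tumor and 7 higher in the spleen. When each clonotype was counted once, 2 of 19 passed (10.5%). Summed over all Trbv genes, the share that would have to move to turn one library's use into the other's was 27.4 percentage points by UMIs and 8.27 points by clonotypes. Between pairs of the 4 spleen libraries it lay between 3.21 and 9.04 points by UMIs.

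**Figure D1:**
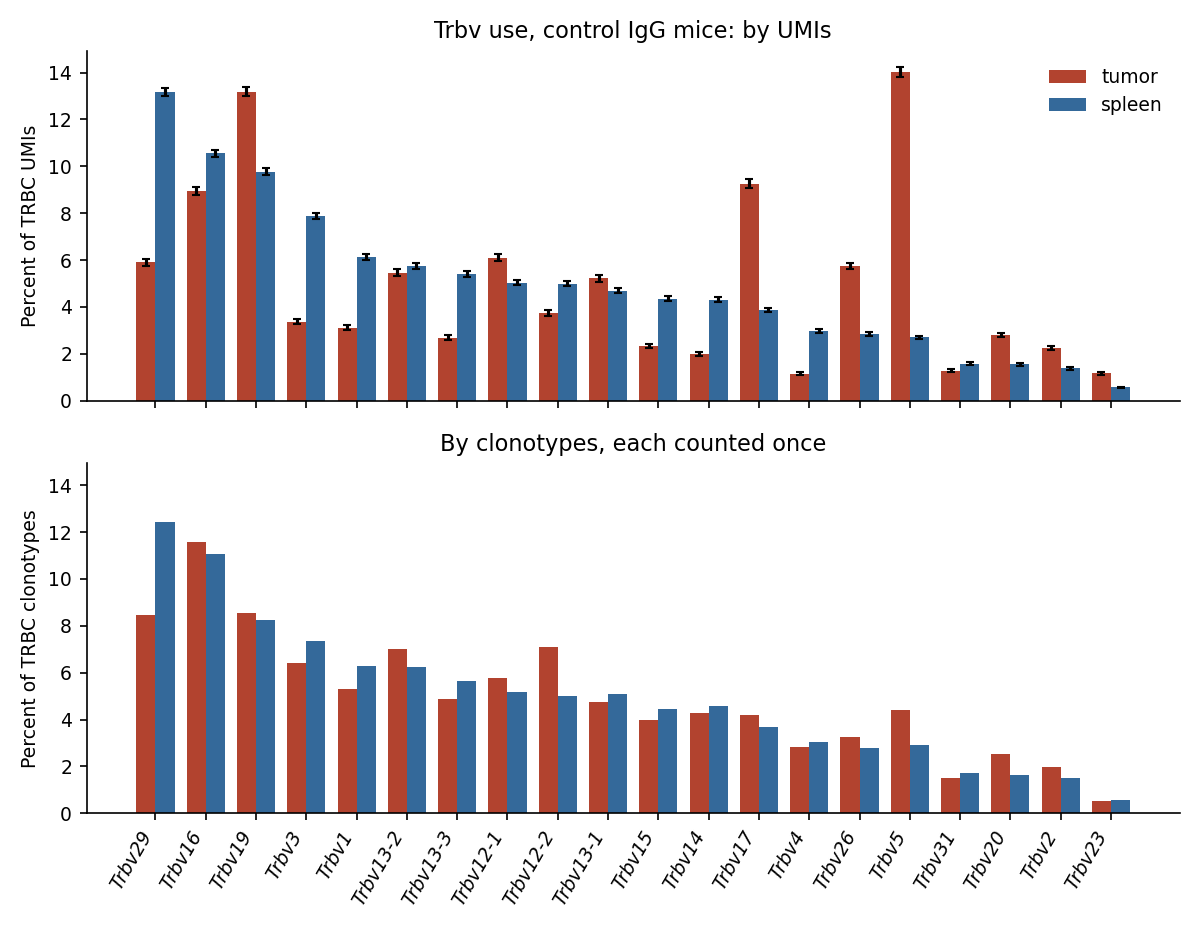
Share of TRBC UMIs (top) and of TRBC clonotypes (bottom) by Trbv gene, in percent, for the 20 genes with at least 1% of UMIs in tumor (red) or spleen (blue), ordered by spleen share. Bars in the top panel carry 95% exact intervals for counting error. Trbv5 and Trbv17 stood above the spleen by UMIs, at 14.01% and 9.26%, and lay at 4.39% and 4.22% of clonotypes.

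Among the genes higher in the tumor, Trbv5 (GRCm38 chr6:41062332-41062803) took 14.01% of tumor UMIs (13.8% to 14.2%) and 2.70% of spleen UMIs (2.62% to 2.78%). The ratio was 5.19 (5.02 to 5.38). Its leading clonotype held 75.7% of its tumor UMIs. With the leading clonotype of each library left out, Trbv5 took 3.81% in the tumor and 2.69% in the spleen. Over the 4 tumor libraries of all treatments Trbv5 took 2.43% to 14.01%, and over the 4 spleens 2.40% to 3.24%. The control tumor was thus the highest tumor. Trbv5 and Trbv20 were also the genes that passed by clonotypes, at 4.39% against 2.92% and 2.54% against 1.65%. Both were close to the 1.5-fold limit, with ratios of 1.504 and 1.54. Merging CDR3s 1 base from a clonotype of the same V and J with at least 10 times their UMIs left 8734 of 9466 tumor β clonotypes. In the spleen 79664 of 79715 were left. Clonotype shares were not recomputed after merging, so copy errors of large clonotypes may add to these 2 shares. Trbv17 (chr6:41163062-41163556) was 2.39-fold higher (2.31 to 2.47), at 9.26% against 3.87%, and no single clonotype held more than 19.1% of it. For Trbv17 every tumor library (4.39% to 9.26%) lay above every spleen library (3.87% to 4.20%). Trbv26 was 2.03-fold higher (1.95 to 2.11), Trbv20 1.80-fold (1.71 to 1.90) and Trbv2 1.64-fold (1.54 to 1.74). For Trbv26, Trbv20 and Trbv2 the range of the tumor libraries overlapped that of the spleens.

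Among the 7 genes higher in the spleen, no clonotype held more than 0.660% of a gene's spleen UMIs. Trbv29 (chr6:41271394-41271881), the most used gene in the spleen, took 13.2% there and 5.91% in the tumor, a ratio of 2.23 (2.16 to 2.29). By clonotypes Trbv29 took 12.4% in the spleen and 8.46% in the tumor. By UMIs it took 5.01% to 14.5% over the 4 tumor libraries of all treatments and 9.39% to 14.2% over the 4 spleens, so these ranges overlapped. For Trbv3 the shares were 7.87% in the spleen and 3.37% in the tumor, and for Trbv1 6.12% and 3.12%. Trbv13-3, Trbv14, Trbv15 and Trbv4 were 2.01, 2.16, 1.86 and 2.57 times as high in the spleen. Tumor and spleen ranges over all treatments also overlapped for Trbv3 (3.37% to 7.75% against 6.57% to 8.57%), Trbv14, Trbv15 and Trbv4. They did not overlap for Trbv1 (2.19% to 5.12% against 5.46% to 6.15%) and Trbv13-3. By clonotypes, Trbv3, Trbv1, Trbv13-3, Trbv14, Trbv15 and Trbv4 were all under 1.5-fold apart. When the 10 most abundant clonotypes of each library were left out, 10 Trbv genes still passed, 6 of them higher in the tumor. The leading clonotypes of Trbv2, Trbv20 and Trbv23, which also passed as higher in the tumor, were not among those 10. Without a gene's own leading clonotype in each library, Trbv2 took 1.61% in the tumor and 1.37% in the spleen, under 1.5-fold apart. On that setting Trbv23 was lower in the tumor, at 0.381% against 0.553%. Trbv26 (4.31% against 2.83%), Trbv20 (2.36% against 1.54%) and Trbv17 (7.63% against 3.86%) stayed over 1.5-fold apart.

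Among the 12 Trbj genes, 3 passed by UMIs (25%) and 0 by clonotypes. Trbj1-2 (chr6:41534001-41534048) took 14.5% of tumor and 5.95% of spleen UMIs, a ratio of 2.44 (2.38 to 2.51). The leading Trbv5 clonotype held 73.0% of the tumor's Trbj1-2 UMIs, and without it the tumor share was 4.39%, below the spleen. Over the 4 tumor libraries Trbj1-2 took 5.62% to 14.5%, and over the 4 spleens 5.59% to 6.03%. Trbj1-6 was 1.81-fold higher in the tumor (1.73 to 1.89), and Trbj2-2 was 1.57-fold higher in the spleen (1.51 to 1.63). As a cluster, the Trbj1 genes took 42.6% of tumor UMIs (42.3% to 42.9%) and 31.2% of spleen UMIs (30.98% to 31.4%). By clonotypes the Trbj1 cluster took 33.6% and 31.3%. Without the 10 most abundant clonotypes of each library, 0 Trbj genes passed.

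The α chain locus on chromosome 14 carries duplicated V genes, which are named with d and n and differ by few bases. Several V regions were listed for 14.1% of tumor and 27.3% of spleen TRAC UMIs, so V use was compared by family. Of 14 Trav families with at least 1%, 6 passed by UMIs (42.9%), and 0 of 13 passed by clonotypes. Trav9 took 13.6% of tumor and 7.02% of spleen UMIs, a ratio of 1.94 (1.89 to 2.001). The Trav9n-3 chain shown above held 56.4% of it, and without the leading clonotype of each library Trav9 took 6.45% in the tumor and 7.003% in the spleen. Over the 4 tumor libraries Trav9 took 7.14% to 13.6%, and over the 4 spleens 6.98% to 7.44%. Trav5 was 2.05-fold higher in the tumor (1.96 to 2.15), with 49.1% in the Trav5d-4 chain, and Trav15 was 1.96-fold higher (1.80 to 2.13). Trav14, the most used family of the spleen, took 15.6% there and 8.97% in the tumor, a ratio of 1.74 (1.69 to 1.79). Its ranges overlapped, at 8.97% to 14.9% over the 4 tumor libraries and 11.8% to 17.0% over the 4 spleens. Trav4 and Trav19 were 1.56 and 1.55 times as high in the spleen. Without the 10 most abundant clonotypes, 1 family passed.

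Traj genes, which are many and lie in 1 array, gave the same contrast between units. Of 35 with at least 1%, 16 passed by UMIs (45.7%), 8 in each direction, and 0 of 35 by clonotypes. Traj9 (chr14:54209393-54209450) took 11.1% of tumor and 3.57% of spleen UMIs, a ratio of 3.10 (2.98 to 3.21). Traj53 (chr14:54162644-54162709) took 3.96% and 0.968%, a ratio of 4.09 (3.81 to 4.38). Their leading clonotypes held 69.6% and 72.6% of their tumor UMIs, and without the leading clonotype of each library the shares were 3.64% against 3.50% for Traj9 and 1.12% against 0.958% for Traj53. Over the 4 tumor libraries Traj9 took 1.62% to 11.1%, and over the 4 spleens 3.57% to 3.87%. For Traj53 the ranges were 1.03% to 3.96% and 0.918% to 1.02%. Traj32, Traj48 and Traj33 were 1.82, 1.82 and 1.56 times as high in the tumor. Higher in the spleen were Traj12 (1.77-fold), Traj49 (1.67), Traj18 (1.83), Traj45 (1.59), Traj6 (2.33), Traj4 (2.04) and Traj39 (1.64). Traj18 is the J segment of the invariant NKT α chain, which is described with the marker chains below. Without the 10 most abundant clonotypes, 5 Traj genes passed.

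CDR3 length, counted in codons with the conserved first cysteine and last phenylalanine or tryptophan, peaked at 13 codons in the tumor and at 14 in the spleen by UMIs, for β and α chains alike. By UMIs the mean β CDR3 was 13.58 codons in the tumor and 13.87 in the spleen, a difference of -0.28. The mean of the 4 spleen libraries lay between 13.87 and 13.89. The tumor held more β chains of 13 codons, 28.1% against 18.9%, and of 11 codons, 8.24% against 4.71%. Single chains made up much of this. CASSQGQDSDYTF (10.6% of tumor TRBC UMIs) and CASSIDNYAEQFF (4.26%) have 13 codons, and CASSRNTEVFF (5.51%) has 11. It held fewer of 14 codons, 26.8% against 31.6%, and of 16 codons, 5.17% against 8.66%. By clonotypes the means were 13.97 and 13.89, so the sign of the difference turned. The tumor listed 13 β clonotypes of over 20 codons, most of them with the V region given as Trbv2 or Trbv18. Without CDR3s of over 20 codons, the means by clonotypes were 13.86 and 13.87. These long sequences held 67 tumor UMIs.

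For α chains the difference ran the other way. The mean was 13.77 codons in the tumor and 13.55 in the spleen by UMIs, a difference of 0.23, and 13.68 and 13.59 by clonotypes. α chains of 15 codons took 17.9% of tumor and 14.7% of spleen UMIs, and those of 16 codons 8.42% and 5.49%. α chains of 12 codons took 9.87% and 15.2%. The leading tumor α chain, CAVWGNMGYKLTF, has 13 codons and took 7.70% of tumor TRAC UMIs. The Trav5d-4 chain has 15 codons, and the leading 10 tumor α chains span 13 to 17 codons.

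**Figure D2:**
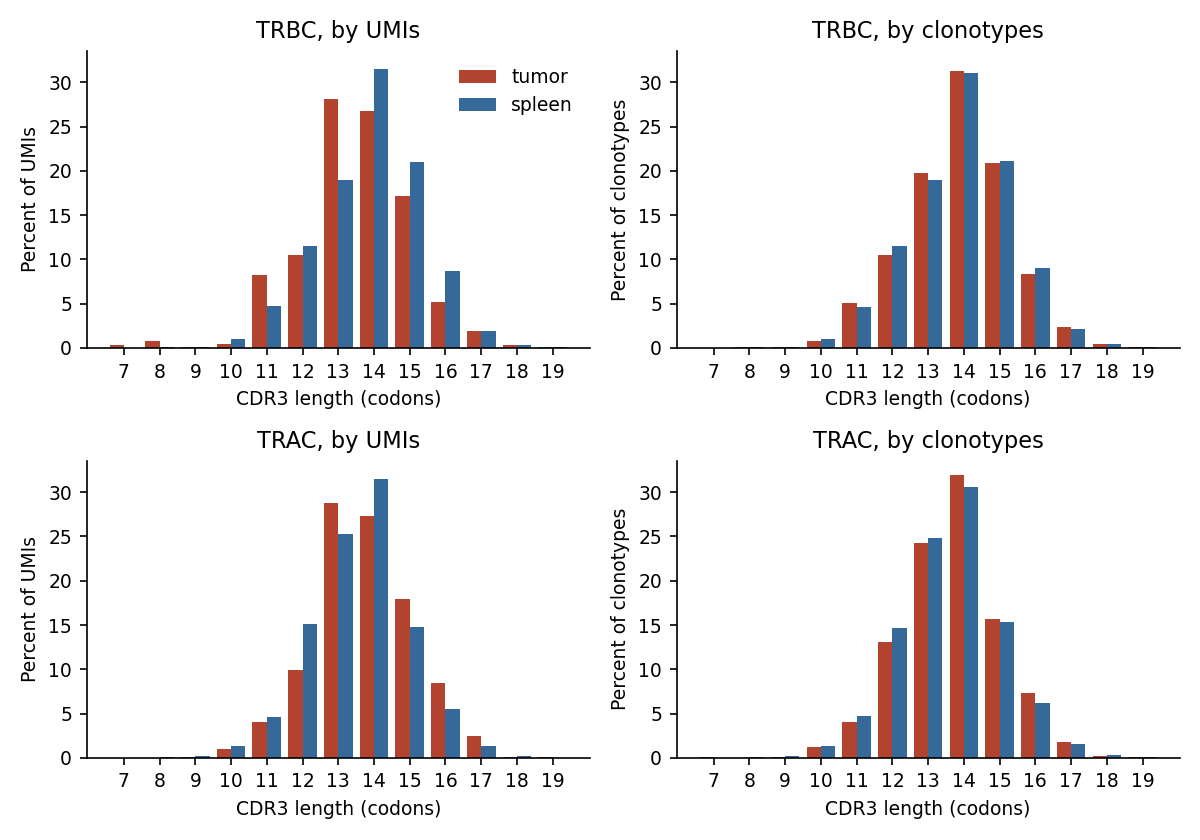
CDR3 length in codons against the percent of UMIs (left) and of clonotypes (right) for TRBC (top) and TRAC (bottom), with tumor in red and spleen in blue. The tumor β chains peaked at 13 codons by UMIs (28.1%), whereas both libraries peaked at 14 codons by clonotypes. A single clonotype of 13 codons held 10.6% of tumor TRBC UMIs.

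The β chains of 8 codons or fewer took 1.12% of tumor UMIs, from 16 clonotypes, and 0.0756% of spleen UMIs, from 60. Among β clonotypes of up to 20 codons with 1 V and 1 J region, the bases that matched neither germline end averaged 8.89 by tumor UMIs and 9.97 by spleen UMIs. By clonotypes they averaged 10.71 and 10.11, before any merging of CDR3s 1 base apart. Chains with no such base took 1.10% of tumor and 0.444% of spleen β UMIs, but 1 tumor clonotype held 924 of these UMIs. Without its amino acid chain, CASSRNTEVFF, which is described below, the shares were 0.219% and 0.443%, the other way round, and the averages by UMIs were 9.30 and 9.97 bases. For α chains, the averages by UMIs were 3.52 bases in the tumor and 3.18 in the spleen. In the spleen, 62% of the 100 most abundant α clonotypes of a single V and J region had no such base, against 14% in the tumor.

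Most Trbv17 UMIs of the tumor belonged to 1 amino acid sequence made by many nucleotide sequences. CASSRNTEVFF, encoded by Trbv17 and Trbj1-1 (chr6:41533864-41533911), held 5732 tumor UMIs, 5.51% of TRBC (5.37% to 5.65%), in 24 nucleotide forms. This chain was singled out after its values were seen, as the tumor β chain with the most nucleotide forms. In the spleen it had 2 UMIs in 2 forms, so the tumor share was 4227-fold higher, with a counting interval from 1170 to 34911. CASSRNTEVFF held 59.5% of the tumor's Trbv17 UMIs. Trbv17 UMIs with any other CDR3 took 3.75% of tumor TRBC UMIs and 3.87% of spleen TRBC UMIs.

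Of its forms with over 10 UMIs, 6 are printed below, since they differ only around the join. The germline CDR3 part of Trbv17 reads tgtgctagcagtagaga and that of Trbj1-1 reads caaacacagaagtcttcttt, and capitals again mark bases outside both.
Form with 1843 tumor and 0 spleen UMIs: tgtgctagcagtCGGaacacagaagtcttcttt
Form with 924 tumor and 1 spleen UMI: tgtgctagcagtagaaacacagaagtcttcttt
Form with 568 tumor and 0 spleen UMIs: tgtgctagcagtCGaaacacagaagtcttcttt
Form with 298 tumor and 0 spleen UMIs: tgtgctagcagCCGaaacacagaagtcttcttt
Form with 270 tumor and 0 spleen UMIs: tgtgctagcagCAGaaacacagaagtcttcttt
Form with 63 tumor and 0 spleen UMIs: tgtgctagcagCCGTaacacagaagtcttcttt
The form with 924 UMIs has no base in capitals, and the others printed have 2 to 4. The form with 924 UMIs was listed in 11 of the 12 libraries, while the form with 568 UMIs was listed in the control tumor alone. When CDR3s 1 base apart were merged into forms with at least 10 times their UMIs, 8 forms remained in the tumor, 7 of them with at least 10 UMIs.

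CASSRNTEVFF was listed in every library of the series, highest in tumors and lowest in spleens. It took 0.145% to 1.99% of TRBC UMIs in tumors of the other treatments, 0.0166% to 0.0648% in the 4 tdLN libraries and 0.00130% to 0.00539% in the 4 spleens. The control tumor was the highest of the 12. Over all β chains with at least 10 UMIs, merged as above, 13 of 1304 amino acid CDR3s in the control tumor had 2 or more nucleotide forms, and they held 8.37% of TRBC UMIs. In the control spleen 0 of 160 had. Few spleen clonotypes reach 10 UMIs, at 1.92 TRBC UMIs per clonotype, and both spleen forms of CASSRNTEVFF fell below that minimum. These counts therefore cannot show whether the libraries differ in this. Without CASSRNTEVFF the tumor count was 12 of 1303, with 2.80% of TRBC UMIs. Among α chains, before merging and at the same minimum, 8 of 1258 (0.737% of TRAC UMIs) had in the tumor and 17 of 419 (1.22%) in the spleen.

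**Figure D3:**
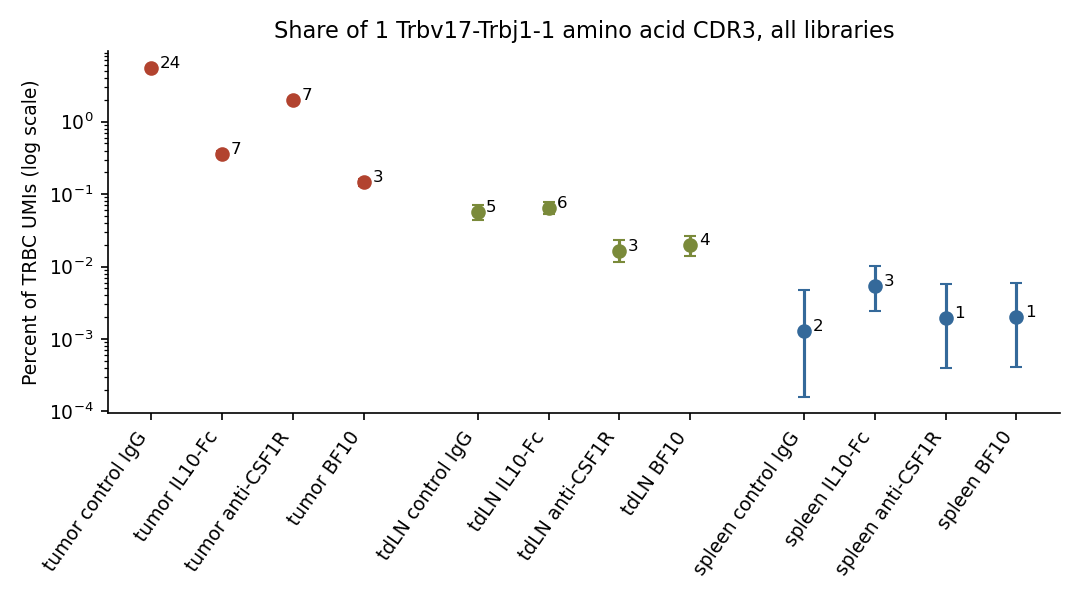
Share of TRBC UMIs, in percent on a log axis, of the Trbv17-Trbj1-1 chain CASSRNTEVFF in each of the 12 libraries, grouped by tissue (tumor red, tdLN green, spleen blue), with 95% exact intervals for counting error. The number beside each point is the count of nucleotide forms, 24 in the control IgG tumor and 2 in the control IgG spleen, and all 4 tumors lie above all tdLN and spleen libraries.

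Clonotypes of the tumor were traced in the spleen by V region, J region and CDR3 nucleotides. Of the 9466 tumor β clonotypes, 504 were listed in the control spleen, or 5.32% (4.88% to 5.80%). The other 3 spleens, from mice of other treatments, listed 402 (BF10), 419 (IL-10-Fc) and 317 (αCSF1R). In percent, the difference was widest among the 100 most abundant clonotypes. Of these, the control spleen listed 11 (11%, 5.62% to 18.8%), 7 of them with at least 2 spleen UMIs. The other spleens listed 3 (0.623% to 8.52%), 4 (1.10% to 9.93%) and 2 (0.243% to 7.04%), and these intervals overlap that of the control spleen. Of the 10 most abundant, the control and BF10 spleens each listed 1, and the IL-10-Fc and αCSF1R spleens listed 0. Of the next 900 after the top 100, the control spleen listed 80, against 49, 48 and 45. Beyond rank 1000 it listed 4.88%, against 4.13%, 4.33% and 3.19%. Of the 11 clonotypes, 8 were listed in no other spleen, while the BF10, IL-10-Fc and αCSF1R spleens listed 1, 2 and 0 that no other spleen held.

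**Figure D4:**
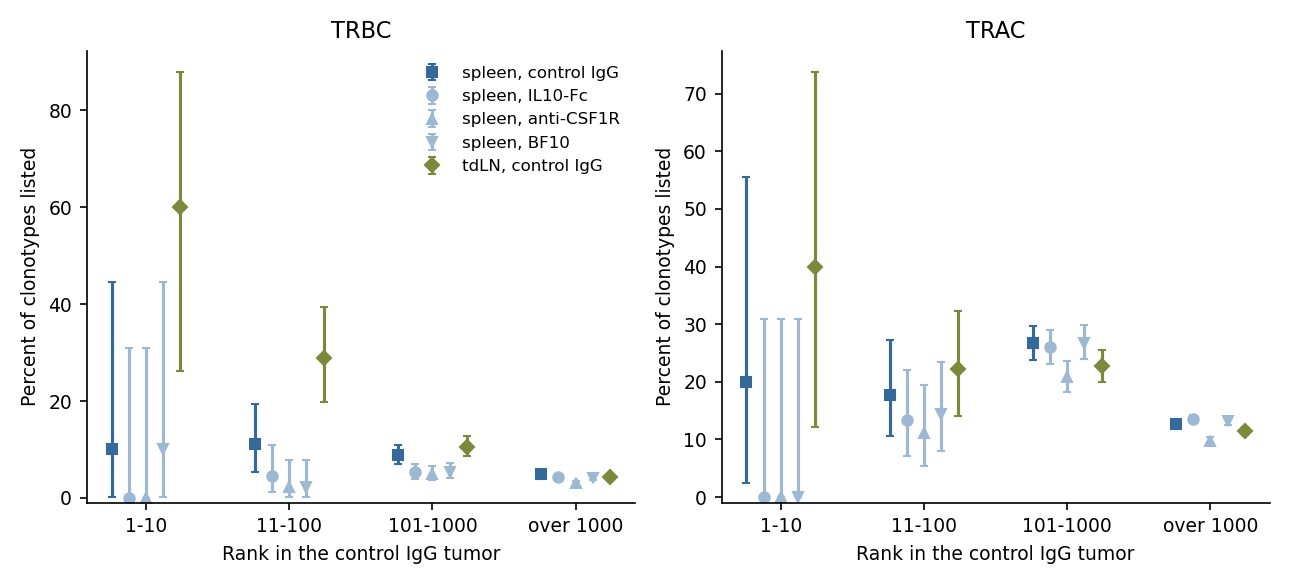
Percent of control IgG tumor clonotypes, by rank of their UMIs in the tumor, that were listed in the control IgG spleen (squares), the 3 spleens of other treatments and the control IgG tdLN (diamonds), with 95% exact intervals, for TRBC (left) and TRAC (right). For TRBC at ranks 11 to 100, the control spleen listed 11.1%, the other spleens 2.22% to 4.44% and the tdLN 28.9%.

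The tdLN of control mice listed more of the leading β clonotypes than the spleen did. Of the 10 most abundant, 6 were listed there and 1 in the spleen, and of the 100 most abundant, 32 were listed there. Those 32 held 58.4% of the UMIs of the top 100, and the 11 in the spleen held 8.95%. Beyond rank 1000 the tdLN and the spleen listed 4.29% and 4.88%. The tdLN library was the shallower of the 2, with 124488 TRBC UMIs. The leading Trbv5 chain, with 56 tdLN UMIs and 0 spleen UMIs, was 1 of the 6.

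Going the other way, 504 of the 79715 spleen β clonotypes were listed in the tumor, or 0.632%, and they held 0.929% of spleen TRBC UMIs. Of the 100 most abundant spleen β clonotypes, 6 were listed in the tumor and held 15.8% of the UMIs of those 100. The most abundant, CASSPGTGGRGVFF with Trbv29 and Trbj1-1, had 118 UMIs in the spleen and 34 in the tumor. The next, a Trbv29-Trbj2-5 chain of 15 codons, had 49 and 0. The third, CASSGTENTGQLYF with Trbv15 and Trbj2-2, had 44 UMIs in the spleen and 223 in the tumor. Neither of the 2 shared chains was listed in a library of another treatment.

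The sequences of the shared β chains with the highest lower share, and of the most abundant tumor β chain that the spleen listed and no other treatment did, are printed to show their joins. The last was chosen after its values were seen.
Trbv29-Trbj1-1, 34 tumor and 118 spleen UMIs: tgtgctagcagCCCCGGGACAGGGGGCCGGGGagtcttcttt
Trbv15-Trbj2-2, 223 tumor and 44 spleen UMIs: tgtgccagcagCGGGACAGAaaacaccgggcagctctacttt
Trbv29-Trbj2-5, 939 tumor and 7 spleen UMIs: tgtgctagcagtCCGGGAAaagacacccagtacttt
These have 21, 9 and 7 bases in capitals. Also among the 5 with the highest lower share were a Trbv29-Trbj2-1 chain of 15 codons with 38 tumor and 39 spleen UMIs, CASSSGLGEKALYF with 13 and 22, and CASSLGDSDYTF with 15 and 11. The first 2 of these were listed in no library of another treatment, and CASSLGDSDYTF was listed in 4.

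Tumor β clonotypes that were listed in the control spleen had shorter joins than those that were not. Their mean CDR3 was 13.37 codons against 14.003, and the bases outside both germline ends averaged 7.61 against 10.91. The codon means include CDR3s of over 20 codons, without which the mean of all tumor β clonotypes fell from 13.97 to 13.86. Of the 504, 191 were listed in no library of another treatment, and these held 2.97% of tumor and 0.449% of spleen TRBC UMIs. A single spleen UMI stood behind 40.5% of the 504.

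For α chains, tracing gave higher shares than for β chains, and the control spleen listed no more in all than the BF10 and IL-10-Fc spleens did. Of 9468 tumor α clonotypes, 1332 were listed in the control spleen, or 14.1% (13.4% to 14.8%), against 1367 (BF10), 1391 (IL-10-Fc) and 1027 (αCSF1R) in the other spleens. Of the 100 most abundant, the control spleen listed 18 (18%, 11.03% to 26.9%), and the others listed 13, 12 and 10. Of the 10 most abundant, the control spleen listed 2 and the other spleens none. These were the Trav5d-4 chain, with 4 spleen UMIs, and a Trav7d-4-Traj32 chain of 16 codons with 1308 tumor and 2 spleen UMIs. The second was listed in no library of another treatment. Counted by CDR3 nucleotides without V and J, 31 of the top 100 were listed in the control spleen, against 30, 34 and 22, so the control spleen was then within the range of the others. For β chains the same definition gave 12, against 5, 8 and 5.

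The α chains with the highest share in both libraries were common ones. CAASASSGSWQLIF with Traj22 was listed under 2 sets of near-identical Trav14 genes, which share this CDR3 to the base.
Since several V genes were listed for it, no base was set against germline.
Trav14-Traj22: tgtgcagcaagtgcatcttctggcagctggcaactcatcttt
Under Trav14-2 or Trav14n-2 it had 86 tumor and 199 spleen UMIs, and under Trav14d-3-dv8 or Trav14n-3 it had 95 and 156. Each was listed in all 9 libraries of other treatments. The remaining 3 were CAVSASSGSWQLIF with Trav3n-3 (41 tumor and 47 spleen UMIs), the same CDR3 with Trav3-1 (29 and 59), and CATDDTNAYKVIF with Trav8-1 and Traj30 (24 and 91). All 3 had no base outside both germline ends. Tumor α clonotypes listed in the control spleen averaged 1.998 such bases, and those not listed averaged 4.86.

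Among marker chains, the invariant NKT α chain, Trav11 or Trav11d with Traj18, recognizes lipids on CD1d. It held 534 of 115039 spleen TRAC UMIs, 0.464% (0.426% to 0.505%), and 19 of 79926 in the tumor, 0.0238% (0.0143% to 0.0371%). The spleen share was 19.5-fold higher (12.4 to 32.7). In the other treatments it took 0.00423% to 0.0213% of tumor and 0.0454% to 0.507% of spleen TRAC UMIs. The IL-10-Fc spleen was the lowest of the spleens. Its main form was the most abundant α clonotype of the spleen, with 212 UMIs there and 2 in the tumor. A further 72 tumor UMIs belonged to a Trav11n-Traj18 clonotype, and Trav11n is annotated as a pseudogene, so whether it yields a receptor was not tested. With Trav11n included, the spleen share was 5.01-fold higher (4.02 to 6.31), and the control tumor, at 0.114%, lay above the IL-10-Fc spleen, at 0.0511%. The MAIT-type chain, Trav1 with Traj33, which is used by cells that recognize vitamin B metabolites on MR1, had 23 UMIs in the spleen and 1 in the tumor. That ratio was 16.0, with a counting interval from 2.59 to 658. The BF10 tumor, with 14 UMIs, had a higher MAIT-type share (0.0119%) than the BF10 spleen (0.00674%), the reverse of the control pair, although the counting intervals of the BF10 pair overlap.

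The γδ chains used different V genes in tumor and spleen. Trgv5, paired with Trdv4 in the γδ T cells of the mouse epidermis, took 11.1% of tumor TRGC UMIs (10.3% to 11.8%) and 0.338% of spleen TRGC UMIs (0.162% to 0.621%). With Trgj1, the tumor share was 32.6-fold higher (17.6 to 68.4). Trdv4 took 51.0% of tumor TRDC UMIs (48.6% to 53.4%) and 1.75% in the spleen (1.26% to 2.36%), a ratio of 29.1 (21.4 to 40.7). In the other treatments Trdv4 took 5.50% to 83.0% of tumor and 0.326% to 3.76% of spleen TRDC UMIs, and Trgv5 with Trgj1 took 5.34% to 27.3% of tumor and 0.254% to 0.678% of spleen TRGC UMIs. For both, every tumor library lay above every spleen library. Trgv2 was the most used γ gene in both, with 77.5% in the tumor and 45.4% in the spleen. Trgv1 and Trgv3 took 3.19% and 1.62% of the tumor and 13.5% and 12.4% of the spleen γ chains. Of UMIs listed as Trgv1 or Trgv3 without a choice, the shares were 1.08% and 12.8%.

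**Figure D5:**
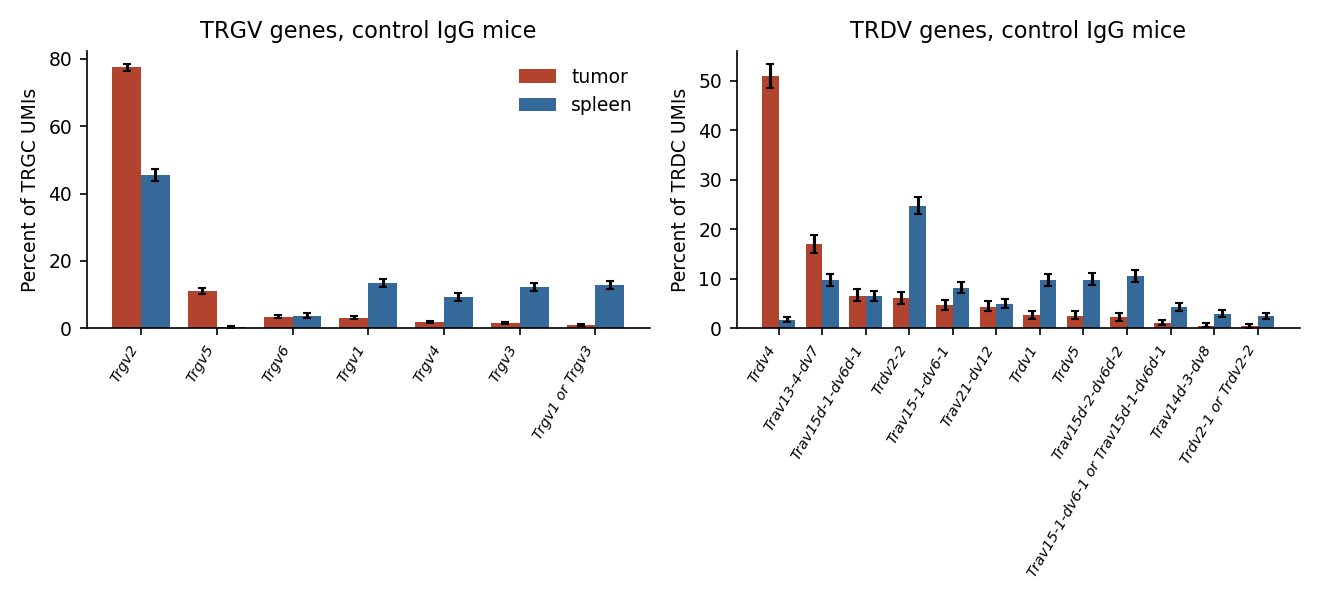
Share of TRGC UMIs by Trgv gene (left) and of TRDC UMIs by V gene (right), in percent, for V regions with at least 2% in tumor (red) or spleen (blue), with 95% exact intervals for counting error. Trdv4 took 51.0% of tumor and 1.75% of spleen TRDC UMIs, and Trgv5 took 11.1% of tumor and 0.338% of spleen TRGC UMIs.

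Among δ genes, Trav13-4-dv7 also took more of the tumor, 17.0% against 9.75%. Trdv2-2 was the most used δ gene of the spleen, with 24.8% against 6.12% in the tumor, and Trav15d-2-dv6d-2 took 10.5% against 2.24%. A single δ clonotype, Trdv4 with Trdj2, was the most abundant of both libraries. It had 524 of 1651 TRDC UMIs in the tumor and 32 of 2400 in the spleen, and it was listed in all 12 libraries. The leading Trgv5 chain, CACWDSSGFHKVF with Trgj1, had 681 tumor and 9 spleen UMIs and was also listed in all 12. The leading γ chain of the spleen was a Trgv6-Trgj1 chain of the same amino acids, with 73 UMIs there and 176 in the tumor. Trgv6 with Trdv4 is the pair of a γδ subset that resides in several barrier tissues. Trgv6 with Trgj1 took 3.39% of tumor γ chains (2.96% to 3.85%) and 3.75% of spleen γ chains (3.10% to 4.50%), with a ratio whose interval spanned 0.716 to 1.14. The most abundant tumor γ clonotype, a Trgv2-Trgj2 chain of 15 codons, had 812 UMIs in the tumor and 0 in the spleen. It was listed in 7 libraries of other treatments.

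The γδ sequences are printed because each was listed in libraries of at least 7 other samples. Capitals are as before, and the Trgv5 and Trgv6 sequences, whose V ends were not matched, are in lower case throughout.
Trdv4-Trdj2, 524 tumor and 32 spleen UMIs: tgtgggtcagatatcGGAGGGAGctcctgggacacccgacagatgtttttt
Trgv5-Trgj1, 681 tumor and 9 spleen UMIs: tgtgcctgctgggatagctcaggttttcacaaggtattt
Trgv6-Trgj1, 176 tumor and 73 spleen UMIs: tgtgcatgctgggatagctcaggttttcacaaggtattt
Trgv2-Trgj2, 812 tumor and 0 spleen UMIs: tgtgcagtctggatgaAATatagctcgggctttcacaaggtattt
The libraries were made from CD8 bead-selected cells, and how many γδ T cells passed with them was not tested.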

How the data were processed

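RNA of bead-selected CD8+ T cells was made into TCR libraries with the QIAseq Immune Repertoire RNA kit, sequenced on a NextSeq 550 and processed by the authors in Qiagen's analysis portal. The authors deposited UMI counts for each clonotype, without normalization, as the number of UMIs with at least 3 reads and with higher minimums. The submitters' processing notes name mm10. The portal's version and its germline reference are not given in the sources used here.

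Shares were computed per chain from UMIs with at least 3 reads. A gene passed with at least 1% in either library and a 1.5-fold difference. Intervals were exact binomial (Clopper-Pearson) for shares and exact conditional for ratios, and steps were tested on simulated data. CDR3s were compared with V and J ends of GENCODE M21 transcripts (GRCm38), each set where it matched the listed CDR3s best. All listed Trbj, Traj and Trdj genes and 25 of 28 Trbv, 84 of 97 Trav and 1 of 7 Trgv genes were placed. Ties in rank were ordered by V, J and sequence.

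Named genes were, for each kind, at most the 12 with the largest difference in share among those that passed, together with the leading and the most shared clonotypes and marker chains. The members and lists were chosen with earlier results of these data known. The other 10 libraries were used to say where a clonotype was listed and for the ranges of named chains and genes. The alternatives included other read and UMI minimums, merging of near-identical CDR3s and other definitions of a clonotype. Tables were handled in pandas 2.3.3 and numpy 2.4.6 under Python 3.11.15, intervals came from scipy 1.17.1, and figures from matplotlib 3.10.9. One sequence is not reported here.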

Additional observations from a re-analysis of the deposited data

How the results depend on the processing

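No paired analysis was possible because each side is 1 library and no result comes from a test. Of 64 values under alternatives, 40 stayed close to the reported one, 23 moved and 1 turned its sign. With each clonotype counted once, 2 Trbv genes, 0 Trbj genes, 0 Trav families and 0 Traj genes passed, the β length difference turned to 0.0793 codons and the α difference was 0.0929. Without the 10 most abundant clonotypes of each library, 0 Trbj genes, 1 Trav family and 5 Traj genes passed, and the length differences were -0.0641 and 0.137 codons. With Trav regions as listed, 23 of 40 passed. Without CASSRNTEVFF, a setting chosen after seeing the data, the β length difference was -0.133 codons and 12 Trbv and 2 Trbj genes passed, without Trbv17 and Trbj2-2.

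By CDR3 nucleotides without V and J, the spleen listed 7.13% of tumor β and 26.8% of tumor α CDR3s, and 31% of the 100 most abundant α CDR3s. The other spleens listed 4.81% to 6.62% of β and 22.8% to 28.5% of α CDR3s in this way. By amino acids the control spleen listed 28.7% and 46.4%, and 31% and 54% of the 100 most abundant. The other spleens listed 25.0% to 30.8% of β and 41.7% to 48.8% of α amino acid CDR3s. Of the 100 most abundant they listed 16% to 24% for β and 51% to 56% for α. With at least 7 reads per UMI in both libraries the control spleen listed 3.96% and 11.2%, and with at least 2 spleen UMIs 3.17% and 10.8%. At the smallest spleen total of each chain, the expected shares moved by less than the intervals. The 1.5-fold counts were the same within 1.5 times at 7 reads, at 2 UMIs, after merging and at a least share of 0.5%. Depth limits the tracing of clonotypes below 0.00196% of spleen TRBC UMIs and 0.00261% of TRAC UMIs.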

Other observations

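Outside the comparison of tumor and spleen, the control tdLN gave further values for the chains described. The Trdv4-Trdj2 clonotype had 1359 UMIs there, 28.0% of TRDC (26.7% to 29.3%), and the Trgv6-Trgj1 chain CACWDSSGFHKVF had 2556, while its Trgv5 counterpart had 33. The MAIT-type α chain had 83 UMIs in the tdLN, 0.0817% of TRAC (0.0651% to 0.101%), against 23 in the spleen and 1 in the tumor. The invariant NKT α chain took 0.496% of tdLN TRAC UMIs (0.454% to 0.541%), against 0.464% in the spleen.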
